A study of Caenorhabditis elegans with 14 samples.

Results

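Trehalose synthesis and breakdown were examined in wild-type N2 Caenorhabditis elegans through 8 genes. These are the trehalose 6-phosphate synthase genes tps-1 and tps-2, the phosphatase gene gob-1 and the trehalase genes tre-1, tre-2, tre-3, tre-4 and tre-5. Each gene was taken by its symbol in the platform annotation and by the probe sets that the annotation assigns to that gene alone. All 8 were measured, by 10 probe sets of the 22548 tested, among 17118 genes with such a probe set. The genes tps-1 and tre-3 had a pair of probe sets each, and the others had 1. Of the 10 probe sets 5, 1 of tps-1, both of tre-3 and those of tre-2 and tre-5, carry a suffix for probes that can match several transcripts. The study used 14 single-colour Affymetrix arrays hybridised with whole-worm RNA. In 5 microwave arrays, synchronised L4 larvae (the last larval stage) raised at 15 °C had spent 2.5 h at 26 °C in a continuous microwave field. The absorbed power is labelled as 5 to 40 mW per kg, and the frequency is given as 1.8 GHz in one protocol and 1 GHz in another. In the 5 sham arrays of the same numbers, larvae were kept for as long at 26 °C without a field. Each of these 10 arrays holds a pool of RNA from 3 exposure runs. A further 2 arrays are labelled heat shock and 2 heat control, and these carry the same culture and microwave protocol text, which leaves the temperature and duration of their treatment undescribed. All groups carry the same N2 genotype and were fed Escherichia coli. No label says that the 2 heat arrays of a group came from separate cultures, so the p-values measure the spread between arrays, which may be technical.

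Trehalose is a disaccharide of glucose that serves nematodes as an energy store and a protectant. Its synthesis starts from UDP-glucose and glucose 6-phosphate, which the synthases join into trehalose 6-phosphate. The phosphatase then removes the phosphate group, and worms that lack gob-1 die as larvae with a blocked gut. Trehalases split the sugar back into glucose. In worms trehalose is known for its rise in dauer larvae, in insulin receptor mutants, under hyperosmotic conditions and during preparation for desiccation.

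The deposited values were linear ratios. Since every sham value was exactly 1, a microwave value was taken as its array over the like-numbered sham. The heat control pair averaged 1 at each probe set, and this average was taken as the baseline of the arrays labelled heat shock. Levels of different genes can therefore not be compared, nor can it be said which of the 8 genes were detected. Markers of tissues could not be checked for presence for the same reason. Microwave pair 1 stood apart from the rest, with a standard deviation of log2 ratios over all probe sets of 0.387, against 0.101 to 0.164 in the other 4 pairs. In 5 worm control transcripts the log2 ratio of the 3' minus the 5' probe set averaged -0.74 in pair 1, whereas the others ranged from -0.13 to 0.03. The arrays labelled heat shock went against their label. The heat-inducible chaperone genes hsp-16.2, hsp-16.41 and hsp-70 were 29.0-fold, 31.6-fold and 10.1-fold lower in them (limma adjusted p = 0.00202, 0.00212 and 0.00202), whereas these genes are known to rise with heat. Directions in the heat comparison follow the labels, and all of them would be reversed by an exchange of the labels or of the sides of the ratio.

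In the arrays labelled heat shock, 5 of the 10 probe sets were lower, those of tps-2, gob-1, tre-1 and tre-2 and 1 of the pair for tre-3, and 0 were higher (limma, Benjamini-Hochberg adjusted p under 0.05 over 22548 probe sets). Over all probe sets tested, 30.0% were called, 15.3% lower and 14.7% higher. With each array centred on its median the count of lower trehalose probe sets was also 5, beside 17.5% lower and 9.65% higher over all. The fall was 4.28-fold for tre-1 and between 1.88-fold and 2.19-fold for the other 4. No call was made for tps-1, tre-4 or tre-5. The median log2 fold change of the 10 probe sets was -0.71, beside 0.12 over all probe sets. In whole-worm RNA fewer cells of a type and less RNA per cell cannot be told apart.

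The synthases come first in the pathway. The probe set of tps-2 had ratios of 0.463 and 0.464 in the arrays labelled heat shock, against 0.781 and 1.219 in the heat controls. Both values labelled heat shock lay below both controls, and they differed from each other far less than the controls did. The log2 fold change of tps-2 was -1.07 ± 0.23 (SE, n = 2 arrays per group; limma adjusted p = 0.0242). The other synthase gene, tps-1, was read by the probe sets 173799_at and 191318_s_at. The first gave 0.666 and 0.849 in the arrays labelled heat shock, against 0.925 and 1.075 in the heat controls. The second gave 0.823 and 0.771 in the arrays labelled heat shock, against 0.875 and 1.125 in the heat controls. The groups did not overlap in either probe set of tps-1, but the log2 fold changes of -0.41 ± 0.17 and -0.32 ± 0.17 did not pass the test (limma adjusted p = 0.130 and 0.195). The 95% interval of the first ran from -0.84 to 0.03, and that of tps-2 from -1.65 to -0.49. The estimate of tps-2 lay outside the interval of the first, but the intervals overlapped.

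The phosphatase gene gob-1 had ratios of 0.499 and 0.418 in the arrays labelled heat shock, against 1.014 and 0.986 in the heat controls. These groups stood clearly apart, and the heat controls were closer to each other than in most other members. The gene fell, with a log2 fold change of -1.13 ± 0.14 (limma adjusted p = 0.00578).

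Among the trehalases, tre-1 had the lowest ratios, at 0.187 and 0.288 in the arrays labelled heat shock, against 1.12 and 0.88 in the heat controls. Its log2 fold change was -2.10 ± 0.25 (limma adjusted p = 0.00496), and 1.26% of all probe sets had a lower one. The probe set of tre-2 had ratios of 0.595 and 0.458 in the arrays labelled heat shock, against 0.812 and 1.188 in the heat controls. It also passed, at -0.91 ± 0.24 (limma adjusted p = 0.0400), and was the call nearest the threshold. For tre-3 the probe sets 173282_s_at and 188642_s_at moved alike in direction. The first gave 0.481 and 0.518 in the arrays labelled heat shock, against 0.845 and 1.155 in the heat controls. The second gave 0.779 and 0.625 in the arrays labelled heat shock, against 0.9 and 1.1 in the heat controls. The groups did not overlap in either probe set of tre-3. The first fell, at -0.98 ± 0.19, and the second stood at -0.51 ± 0.18 (limma adjusted p = 0.0171 and 0.0823). The mean of both tre-3 probe sets passed in a fit over genes, at -0.75 ± 0.16 (limma adjusted p = 0.0280), whereas the mean of the tps-1 probe sets did not, at -0.36 ± 0.15 (limma adjusted p = 0.124).

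The remaining trehalases showed no call. The ratios of tre-4 were 1.296 and 0.828 in the arrays labelled heat shock, against 1.078 and 0.922 in the heat controls. One array labelled heat shock lay above both controls and the other below both, and the log2 fold change was 0.06 ± 0.24 (limma adjusted p = 0.877). With each array centred on its median the value of tre-4 was -0.047. The ratios of tre-5 were 1.018 and 0.944 in the arrays labelled heat shock, against 1.006 and 0.994 in the heat controls. Here too the groups overlapped, at -0.03 ± 0.12 (limma adjusted p = 0.875). The 95% interval of tre-5, from -0.34 to 0.28, left room for a small change only, whereas that of tre-4 ran from -0.55 to 0.66.

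**Figure D1:**
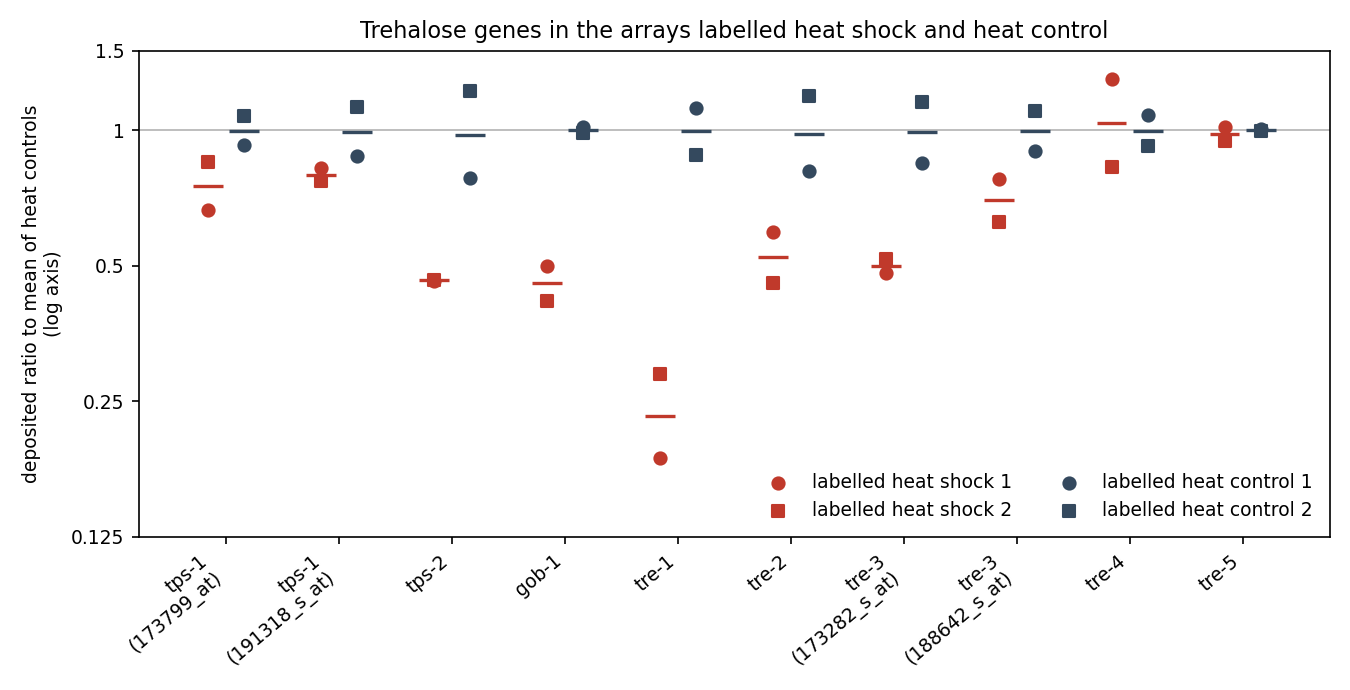
Deposited ratio of each of the 10 trehalose probe sets to the mean of the heat controls, on a log axis, with circles for replicate 1, squares for replicate 2 and lines for the geometric mean of each group. The arrays labelled heat shock lie below both controls in 8 probe sets and lowest in tre-1, at 0.187 and 0.288, whereas tre-4 and tre-5 overlap.

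In 8 of the 10 probe sets both arrays labelled heat shock lay below both controls, and in 0 of 10 above them. Over all probe sets 28.1% did not overlap in the lower direction and 44.3% in the higher. At gene level 5 of the 8 genes fell and 0 rose, where 14.8% of 17118 genes were called lower and 15.2% higher. With replicate 1 labelled heat shock left out, 0 trehalose probe sets passed, as did 0 of all probe sets, with 6642 at an unadjusted p under 0.05 (limma). With replicate 2 left out, only tre-1 passed, as 1 of 1108 probe sets, and its log2 fold change was -2.41. Both fits rest on 1 array labelled heat shock, which takes its spread from the controls. Without replicate 2 of the heat controls tre-2 did not pass, and its log2 fold change was -0.64.

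Members with the same role were set against each other within each array, with tps-1 taken as the mean of its probe sets. These differences were not among the planned comparisons, and no share of non-overlap over other gene pairs is given. The log2 ratio of tps-2 minus that of tps-1 was -0.68 and -0.80 in the arrays labelled heat shock, against -0.20 and 0.15 in the heat controls. The groups did not overlap, and the mean change of the difference was -0.71. The log2 ratio of tre-1 minus that of tre-2 was -1.67 and -0.67 in the arrays labelled heat shock, against 0.46 and -0.43 in the heat controls. Again the groups did not overlap, and the arrays labelled heat shock lay far apart from each other. An exact two-sided permutation test of 2 arrays against 2 cannot give a p below 0.333, and no other test of these differences was run. In order of log2 fold change, tre-1 came lowest, followed by gob-1, tps-2, the probe set 173282_s_at of tre-3 and tre-2. The 95% intervals of neighbouring members in this order overlapped, from -2.73 to -1.47 for tre-1 and from -1.49 to -0.77 for gob-1, for example.

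Among enzymes that supply the substrates of trehalose, 6 of 8 measured genes for hexose phosphates and UDP-glucose fell and 0 rose in the arrays labelled heat shock (limma at gene level). Over all genes 14.8% were called lower and 15.2% higher. The phosphoglucomutase gene pgm-1 had ratios of 0.172 and 0.236 in the arrays labelled heat shock, against 1.006 and 0.994 in the heat controls. Its log2 fold change of -2.31 ± 0.18 was the lowest of the list (limma adjusted p = 0.00270). The glucose 6-phosphate isomerase gene gpi-1 stood at -1.54 ± 0.17 and the phosphoglucomutase gene pgm-2 at -1.18 ± 0.13, and both fell. The median log2 fold change of this list was -0.93, beside 0.13 over all genes.

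Glycogen is the other glucose store. Of 7 measured glycogen genes 1 fell, 0 rose and 6 did not pass, a share of lower calls near the 14.8% over all genes. The gene that fell was T04A8.7, which encodes a glycogen branching enzyme, with ratios of 0.239 and 0.363 in the arrays labelled heat shock, against 0.813 and 1.187 in the heat controls. Its log2 fold change was -1.74 ± 0.28 (limma adjusted p = 0.0121). The glycogen synthase gene gsy-1 stood at -0.50 and the glycogen phosphorylase gene pygl-1 at -0.52, and neither passed (limma adjusted p = 0.102 and 0.0611). Both were named after their values were seen.

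In gluconeogenesis and the glyoxylate cycle, which make sugar from other carbon sources, 3 of 6 genes fell and 0 rose, beside 14.8% lower and 15.2% higher over all genes. These were the glyoxylate cycle gene icl-1 at -1.95 ± 0.17, the pyruvate carboxylase gene pyc-1 at -1.63 ± 0.18 and the phosphoenolpyruvate carboxykinase gene pck-2 at -1.36 ± 0.12 (limma adjusted p = 0.00312, 0.00510 and 0.00305). The ratios of pck-2 were 0.381 and 0.398 in the arrays labelled heat shock, against 1.027 and 0.973 in the heat controls. The list median was -1.07.

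In the glycerol and hyperosmotic list 4 of 11 measured genes fell, 1 rose and 6 did not pass, beside 14.8% lower and 15.2% higher over all genes. The gene that rose was gpdh-1, for a glycerol 3-phosphate dehydrogenase known to be induced by hyperosmotic conditions, with ratios of 1.965 and 1.723 in the arrays labelled heat shock, against 0.972 and 1.028 in the heat controls. Its log2 fold change was 0.88 ± 0.13 (limma adjusted p = 0.00963). Among those that fell were the myo-inositol transporter genes hmit-1.1 at -1.82 ± 0.20 and hmit-1.2 at -1.19 ± 0.27. Of 11 insulin pathway genes and stress regulators 5 fell and 0 rose. The kinase genes akt-1 and sgk-1 fell, at -2.02 ± 0.18 and -1.26 ± 0.15, as did the transcription factor gene skn-1 at -1.41 ± 0.12. Of 4 desiccation genes lea-1, for a late embryogenesis abundant protein, fell at -0.51 ± 0.12 (limma adjusted p = 0.0349), and 3 did not pass, so that 1 call is near the share over all genes.

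**Figure D2:**
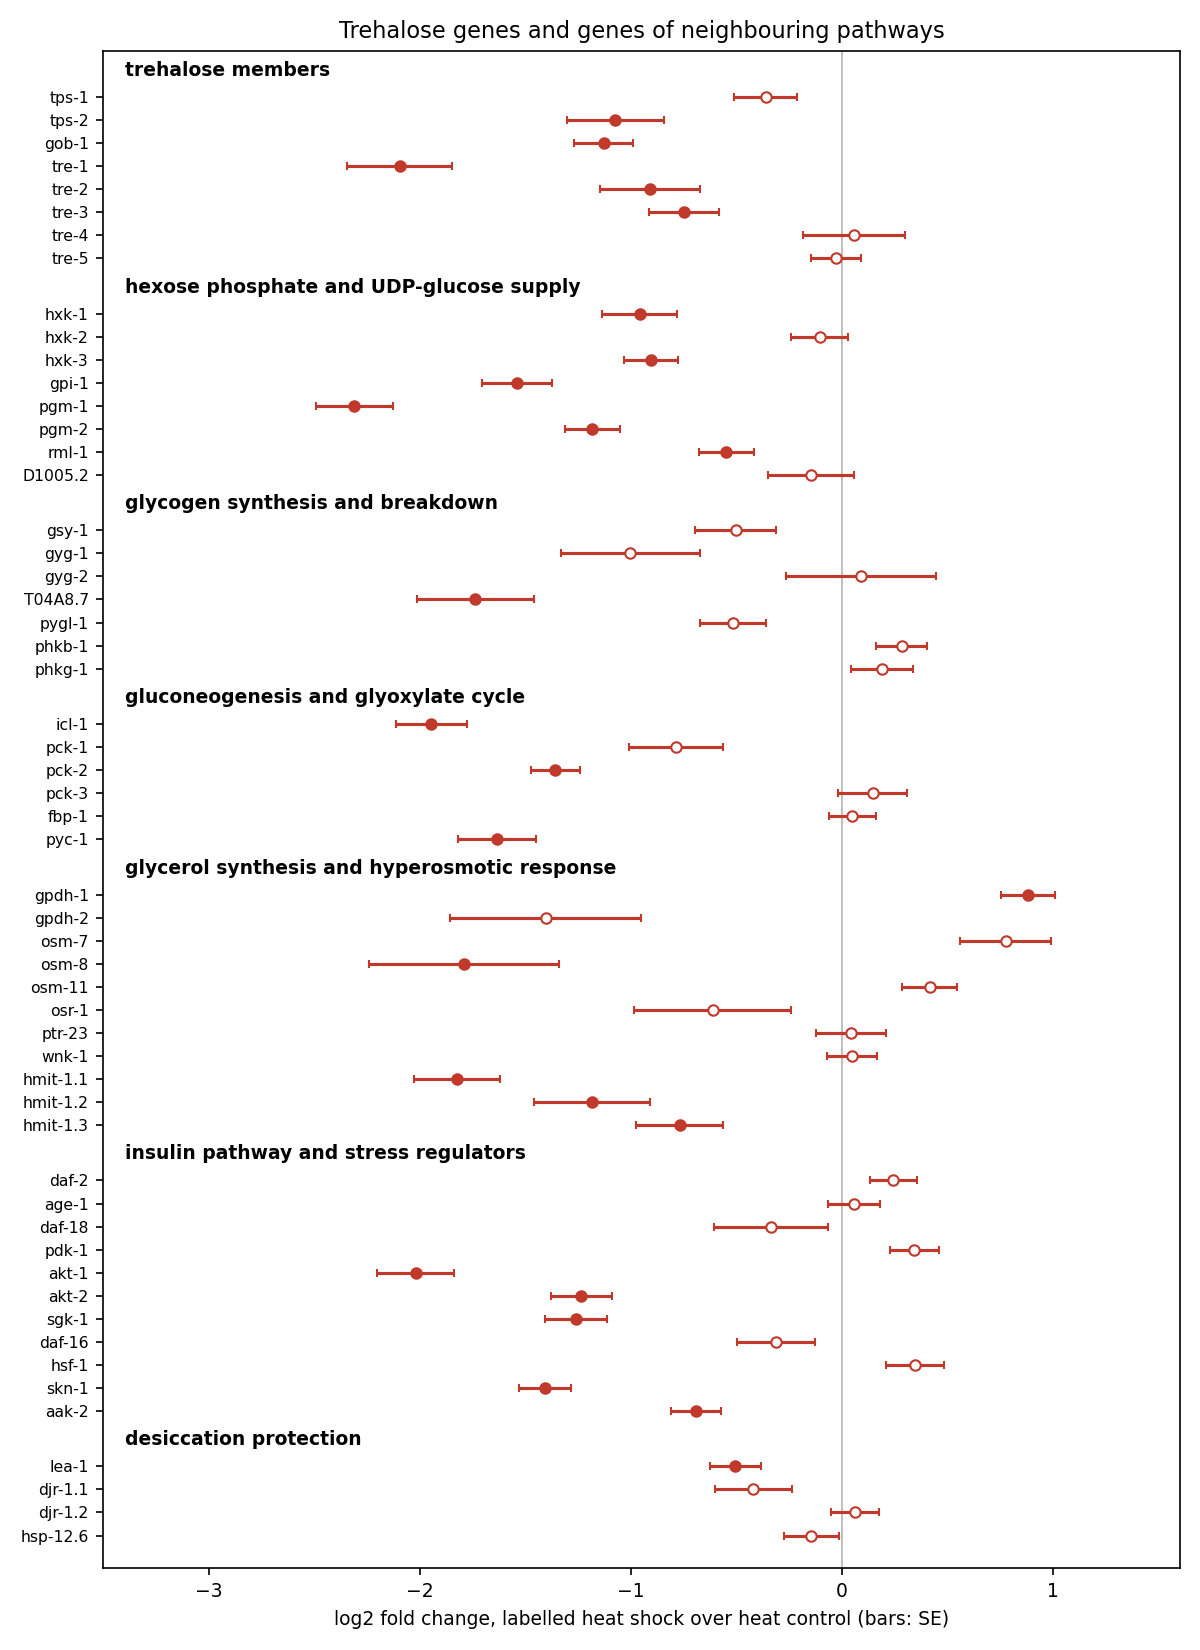
Log2 fold change of each measured gene, labelled heat shock over heat control, for the trehalose genes and 6 lists of neighbouring pathways. Bars are SE and filled points passed an adjusted p of 0.05. Filled points lie left of 0 in every list, and gpdh-1, at 0.88, is the only filled point to the right.

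Some tissue and stage markers were also called in the same arrays, beside 14.8% lower and 15.2% higher over all genes. Of the body wall muscle markers 4 of 4 were lower, of the intestinal markers 4 of 6, of the neuronal markers 2 of 4, and of these 3 lists 0 were higher. In the hypodermis 2 of 5 were lower and 1 higher, and in the germ line 2 of 5 were lower and 1 higher. Of the sperm markers 3 of 5 were higher and 1 lower, of the embryo markers 1 of 5 was higher, and of the oocyte markers 0 of 5 passed (limma at gene level). Median log2 fold changes ran from -1.04 in body wall muscle and -0.71 in intestine to 0.41 in embryo and 0.66 in sperm. Lists of 4 to 6 genes with 1 call in a direction are near the share over all genes. Ratios give no summed level of a marker list, and the part of these shifts in the trehalose values was not tested.

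The profile of tre-1 over the 9 arrays that were not constant was nearest to those of C27H6.8, stam-1 and toc-1, by the root mean square difference of log2 values. That difference was 0.13, 0.16 and 0.16, where the median over all other single-gene probe sets was 1.14. In the heat comparison these genes stood at -2.06, -1.91 and -1.83, and in microwave pair 1 at 0.94, 0.87 and 1.21. They were chosen by closeness on these same arrays, so their likeness to tre-1 in these values follows from the choice. The median of 1.14 reflects how far tre-1 itself lay from most probe sets. The profile of tre-4, the member with the highest heat value, was nearest to those of Y22D7AR.2, acs-21 and C53D5.1, at 0.078, 0.083 and 0.084, where the median was 0.299.

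The microwave comparison asked whether the field altered transcript levels at matched temperature. None of the 10 trehalose probe sets passed, and none had an unadjusted p under 0.05, the lowest being 0.314 (limma, n = 5 pairs). Over all probe sets 0% passed an adjusted p of 0.05, and 3.47% had an unadjusted p under 0.05. Mean log2 ratios of the 10 lay between -0.07 for tre-5 and 0.20 for tre-1, with 6 above 0 and 4 below. For 9 of the 10 probe sets, and 97.2% of all, the 95% interval excluded a change of 1.5-fold or more in either direction. The exception was tre-1, with an interval on the log2 scale from -0.24 to 0.65.

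For the synthases the means over pairs were near 1, with single pairs between 0.842 and 1.383. In pairs 1 to 5 tps-2 had microwave to sham ratios of 1.147, 1.078, 0.903, 0.931 and 1.130. The probe set 173799_at of tps-1 had 1.034, 0.961, 1.205, 0.884 and 0.926, and 191318_s_at had 1.383, 1.011, 1.130, 0.842 and 1.047. Each of the 3 had pairs on either side of 1. Their mean log2 ratios were 0.05 ± 0.07, -0.006 ± 0.07 and 0.10 ± 0.10 (SE, n = 5 pairs; limma adjusted p = 0.882, 0.987 and 0.861). The mean of both tps-1 probe sets was 0.045 ± 0.077. Without pair 1 the mean log2 ratios were 0.0086 for tps-2, -0.019 for 173799_at and 0.0026 for 191318_s_at.

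The ratios of gob-1 were 1.158, 1.003, 1.052, 0.952 and 1.026 in pairs 1 to 5, with 4 of 5 above 1. Its mean log2 ratio was 0.05 ± 0.06 (limma adjusted p = 0.865), and 0.011 without pair 1. Both this gene and the synthases therefore had a mean within 0.10 of 0 on the log2 scale.

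Of the trehalases, tre-1 had ratios of 2.297, 1.073, 0.918, 0.899 and 0.999 in pairs 1 to 5. The value of pair 1 stood alone, and the other 4 pairs lay on both sides of 1. The mean log2 ratio of tre-1 was 0.20 ± 0.19 over all 5 pairs (limma adjusted p = 0.861) and -0.04 without pair 1. In tre-2 the ratios were 1.212, 1.009, 1.026, 0.901 and 1.009, and the mean log2 ratio of 0.04 ± 0.07 was -0.02 without pair 1. In tre-3 the probe set 173282_s_at had 0.859, 1.003, 1.111, 0.944 and 0.971, and 188642_s_at had 1.143, 1.021, 0.904, 1.007 and 1.058. These probe sets of 1 gene lay on opposite sides of 1 in pairs 1, 3, 4 and 5, at mean log2 ratios of -0.04 ± 0.06 and 0.03 ± 0.06, and of 0.0076 and -0.0061 without pair 1. In tre-4 the ratios were 0.928, 0.963, 0.912, 0.996 and 1.023, with 1 of 5 above 1 and a mean log2 ratio of -0.05 ± 0.05, and of -0.040 without pair 1. In tre-5 they were 0.795, 1.092, 0.962, 1.032 and 0.902, with a mean of -0.07 ± 0.07, and of -0.0081 without pair 1. In none of the 10 probe sets were all 5 pairs on the same side of 1, which held above 1 for 2.83% and below 1 for 3.18% of all probe sets.

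**Figure D3:**
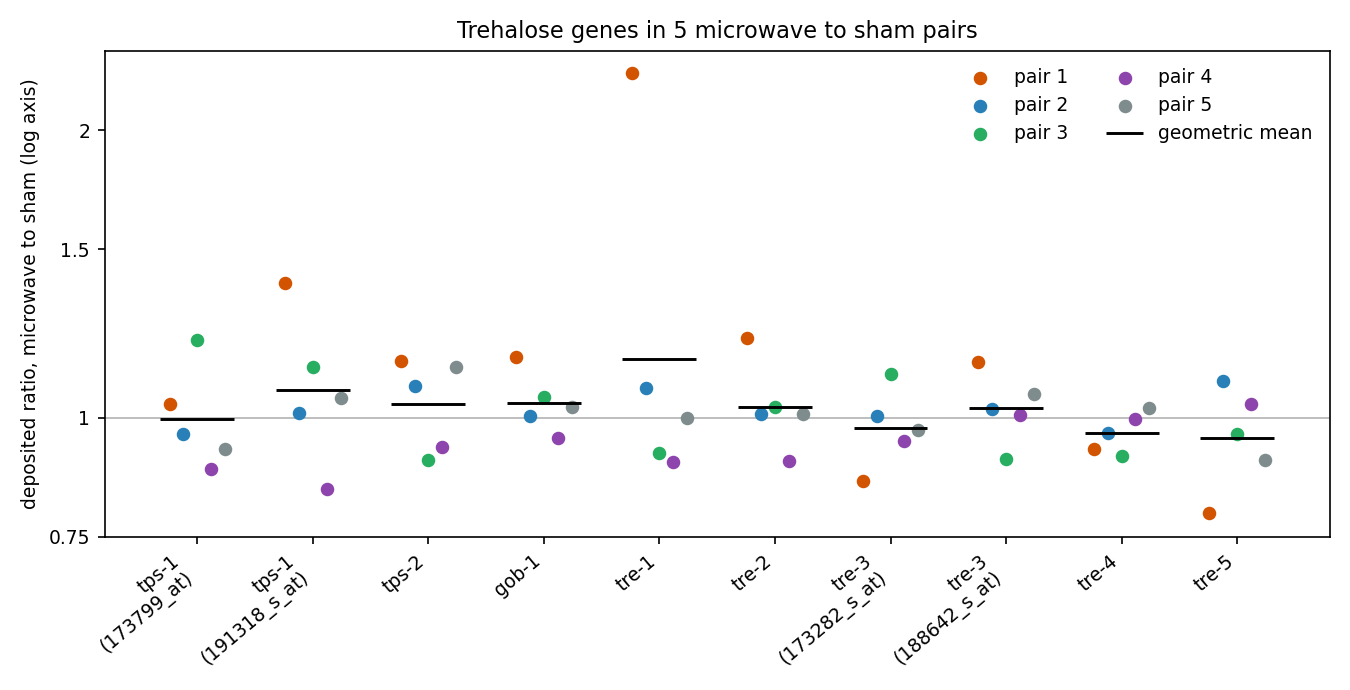
Deposited microwave to sham ratio of each trehalose probe set in each of 5 pairs, on a log axis, with a black line for the geometric mean; the sham value is 1 throughout. Most points lie close to 1, and the ratio of tre-1 in pair 1, at 2.297, lies far above all others.

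The genes of the neighbouring pathways had small microwave ratios too, with 0 genes called in each of the 6 lists (limma at gene level; 571 of all 17118 genes had an unadjusted p under 0.05 and 0 passed). List medians on the log2 scale ran from 0.00087 for desiccation genes to 0.13 for glycogen genes. The genes named for their heat values stood at 0.04 ± 0.10 for pgm-1, 0.10 ± 0.08 for gpi-1 and 0.002 ± 0.06 for pgm-2. Those of sugar synthesis stood at 0.12 ± 0.05 for icl-1, 0.20 ± 0.11 for pyc-1 and 0.12 ± 0.07 for pck-2, and T04A8.7 stood at 0.26 ± 0.19. The osmotic genes gpdh-1, hmit-1.1 and hmit-1.2 stood at -0.01 ± 0.07, 0.05 ± 0.08 and 0.02 ± 0.05. The regulators akt-1, sgk-1 and skn-1 stood at 0.05 ± 0.12, 0.006 ± 0.05 and 0.28 ± 0.12, and lea-1 stood at 0.13 ± 0.06. Their adjusted p-values were 0.872 or more (limma at gene level).

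The trehalase tre-1 was thus at the low end of the heat comparison and at the high end of pair 1, the pair with the wide spread and the low 3' minus 5' difference of -0.74, whose part in the value was not tested. The microwave to sham ratio in pair 1 was above 1 in 7 of the 10 probe sets. The median log2 ratio there was 0.195 over the 10 and -0.007 over all probe sets, of which about as many lay above 1 as below. Log2 ratios of pair 1 also rose with gene length (Spearman correlation 0.25 over 20701 probe sets). The heat log2 fold change had a Spearman correlation of -0.16 with gene length. All trehalose genes but tre-5 are longer than the median of 2423 bp, and the part of length in these values was not tested. In pair 1, 1.12% of all probe sets had a higher ratio than tre-1. Over all 22548 probe sets the log2 ratio of pair 1 and the heat log2 fold change had a Pearson correlation of -0.37. In the other 4 pairs that correlation lay between -0.10 and 0.19. Probe sets of the same arrays share their RNA and hybridisation and are not independent, so this is a description without a test. The 2 comparisons share no control array.

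**Figure D4:**
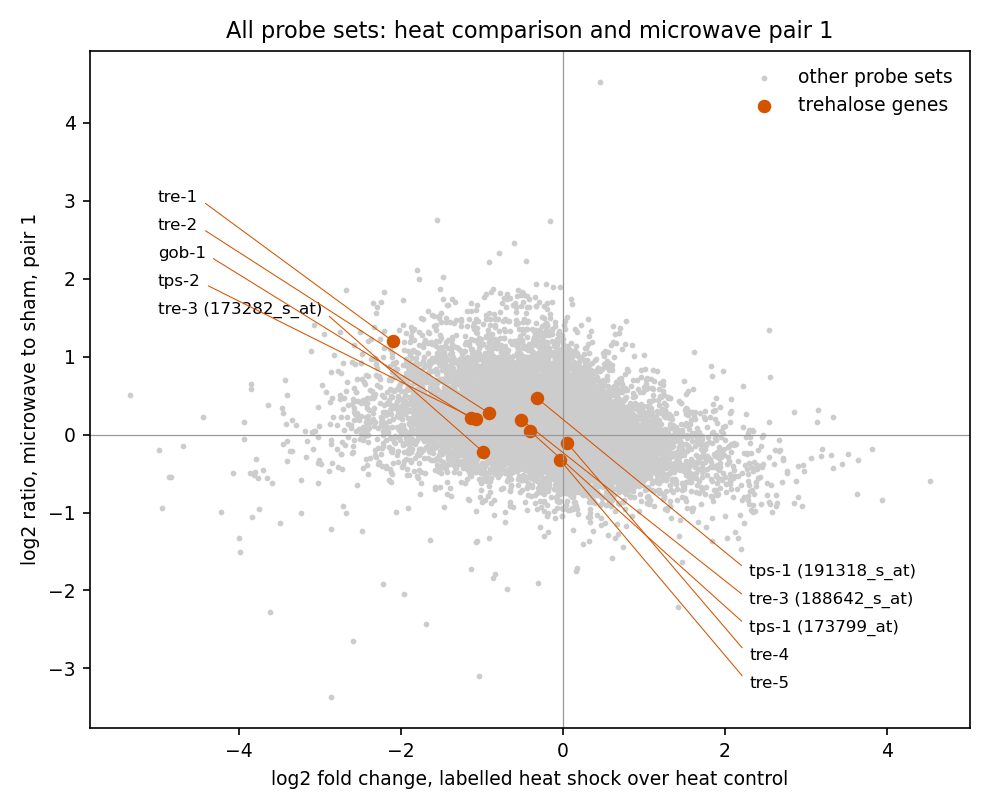
Log2 ratio of each probe set in microwave pair 1 (vertical) against its log2 fold change in the arrays labelled heat shock over heat control (horizontal), with the 10 trehalose probe sets in orange. The cloud tilts downward to the right (Pearson correlation -0.37), and tre-1 lies at its upper left, at -2.10 and 1.2.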

How the data were processed

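The authors deposited a linear ratio per probe set and array. GCOS and MAS 5 appear in the labels' protocols for image reading and normalisation. RMA is named, with no version, in the submitters' processing notes. The sources used here do not settle which of these made the ratios, or the genome build. The baselines of the microwave and heat shock columns were inferred from the values. Without scan dates in the array sheets, batches were not tested.

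Ratios were taken to log2 with no floor, and 77 control probe sets were left out. With limma 3.58.1 in R 4.3.3 the mean of 5 log2 pair ratios was tested against 0, and 2 arrays labelled heat shock were compared with 2 heat controls without a block. Variances were moderated with eBayes, tests were two-sided, p-values were adjusted by Benjamini-Hochberg over all 22548 probe sets, and the threshold was 0.05. Gene values are means over the single-gene probe sets of each gene, fitted over 17118 genes. Symbols were updated by gene identifier through the RefSeq gene table of WBcel235, used for names, gene length and gene order. The members, the 6 pathway lists and the 8 marker lists were chosen with earlier results of these data known. All members are named, with up to 3 genes per list of smallest adjusted p among those past the threshold and the 3 nearest profiles of the highest and lowest member.

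The fits were tested on simulated data in which 200 of 22548 probe sets changed, 50 per fold: the microwave fit recovered 66% of 1.5-fold and 98% of 2-fold changes, and 7 of 149 calls were false. The heat fit recovered 0% of 2-fold and 76% of 4-fold changes, and 4 of 42 calls were false. These shares depend on how many probe sets change. In the heat comparison of the data 30.0% of probe sets were called, so the simulated shares do not give the recovery there. Alternatives in both comparisons were median centring, leaving out probe sets that can match several genes, a robust variance model, array weights and gene means. Gene length regressed out by lowess (added after seeing the data) and leaving out each pair or array were also run in both. Quantile normalisation was run in the microwave comparison only, and a replicate block in the heat comparison only.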

Additional observations from a re-analysis of the deposited data

Results flagged for a closer look

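The microwave to sham log2 ratio of tre-1 in pair 1 was 1.2, and the next highest of the 5 pairs was 0.10. The gap between them was 0.811 of the whole range, above the 95% critical value of 0.71 of Dixon's test for 5 values. The other 9 trehalose probe sets showed no such gap. A rate of 1 in 20 by chance would hold only for 5 values of equal spread. Over all probe sets the standard deviation was 0.387 in pair 1 and 0.101 to 0.164 in the others. Gaps set by pair 1 can therefore pass more often, and the share of all probe sets that pass is not given here. Pair 1 had the widest spread of log2 ratios of the 5 pairs and the lowest 3' minus 5' difference of the control transcripts, and their part in the value of tre-1 was not tested.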

How the results depend on the processing

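In the microwave comparison 0 trehalose probe sets and 0 of all features passed under every alternative run. The value of tps-1 at 173799_at, -0.006, became 0.045 as the mean of both tps-1 probe sets. Without 1 pair it ran from -0.074 to 0.037, tre-1 from -0.044 to 0.29, tre-2 from -0.022 to 0.085, and the tre-3 probe sets from -0.085 to 0.0076 and from -0.0061 to 0.079. With all pairs kept, the value of tre-1 was 0.042 with array weights, 0.078 with quantile normalisation and 0.21 with centring. The array weight of pair 1 was 0.24, the lowest of the 5 pairs. In the heat comparison 5 probe sets were lower as reported, 5 with centring, robust variances, array weights and gene means (5 of 8 genes), 4 with the gene length trend removed and 3 of the 5 probe sets left when those able to match several genes were dropped (4338 of 15837 called, against 6774 of 22548). With the replicate block 4 were lower and 4312 of all were called; the heat numbers are not shown to pair arrays (correlation of deviations -0.05). The call of tre-2 was lost with the block (adjusted p = 0.0938) and with the length trend removed (0.0501), in a range from 0.0296 to 0.0938 over its alternatives. Values of tre-4 and tre-5 changed sign, to -0.047 with centring and to 0.065 with the length trend removed. Leaving out 1 heat array gave 0 to 5 trehalose probe sets and 0 to 6594 of all; tre-4 then ran from -0.27 to 0.38 and tre-5 from -0.083 to 0.026. The 4 heat arrays limit precision, and signal over background is unknown.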

Other observations

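No 2 of the 8 trehalose genes were direct neighbours among protein-coding genes in the RefSeq gene order. Of the 16 flanking genes 15 were measured, and in the arrays labelled heat shock 3 were lower, 3 were higher and 9 did not pass (limma at gene level). These shares are near the 14.8% lower and 15.2% higher over all genes, and nothing particular to the neighbours is read from them. The neighbour of tps-2, pugs-2, stood at -3.02, and that of tre-1, dad-1, stood at 1.53. Both neighbours of tre-5, which itself stood at -0.03, were lower, with sptl-1 at -2.11 and ascc-1 at -1.09. Both neighbours of tre-4, col-184 and efn-3, were higher, at 0.97 and 0.63. These genes were named after their values were seen.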
